A study of Harpegnathos saltator with 75 samples.

Results

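The brains of *Harpegnathos saltator* gamergates and workers were compared at day 10 after the start of the dueling tournament. Harpegnathos saltator is the Indian jumping ant, and a gamergate is a worker that has become a reproductive. The comparison rests on 10 brain libraries of the 75 in the series. They were taken by their column names in the table of read counts, 5 libraries of day 10 gamergates and 5 of day 10 workers. The series as a whole holds 15 groups of 5 libraries, from brain, fat body and ovary, at day 0 and, for both castes, at day 3 and day 10. All brain libraries are polyadenylated RNA from the non-visual brain, that is, the brain without its visual part. No transgene, drug or strain difference is given in the labels, and the ages of the ants are not given there. The series' design text calls the ants prospective gamergates and prospective workers, so caste is the path an ant was on. Whether a library holds 1 ant or a pool is not stated, and p-values measure the spread between libraries. For the main test of each gene this spread was estimated over all 25 brain libraries, day 0 and day 3 included.

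In this species, workers that lose their reproductive compete in ritual antennal duels, and the winners activate their ovaries, lay eggs and live longer. The change of caste happens in adults, after development is complete. The fat body, the insect organ that combines functions of liver and adipose tissue, lies in the abdomen and also as small lobes in the head, close to the brain. The question of the comparison was which transcripts differ in the brain by day 10 of this change.

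Between 488892 and 1643365 reads were assigned to genes in the gamergate libraries, and between 554764 and 2327278 in the worker libraries. Genes enriched in the brain at day 0 took 10.5% to 17.9% of these reads, against 0.110% to 0.437% in the fat body libraries and 0.365% to 0.851% in the ovary libraries of day 10. Genes enriched in the ovary took 0.122% to 0.148%, against 2.51% to 5.38% in ovary libraries. Genes enriched in the fat body took 2.83% to 7.47%, against 37.6% to 70.4% in fat body libraries and 2.01% to 4.40% in ovary libraries. The tissue label thus matched the reads in all 10 libraries. Gamergate library 5 stood apart from the other 9, with a root mean square log2 difference of 0.899 to 1.22 to them. Among the other 9 this distance was 0.366 to 0.709. The library had the lowest share of brain-enriched genes (10.5%, against 14.98% or more in the others) and the highest share of fat-body-enriched genes (7.47%). All gamergate libraries were on lane 2 and all worker libraries on lane 1 of the same flow cell, per the library names, so caste and lane cannot be told apart within day 10. A fit with the 4 lanes of both flow cells as a term was possible only through the day 0 libraries, which were spread over them. On the day 10 flow cell, day 0 library 3 was on lane 1 and day 0 library 4 on lane 2. The lane-adjusted caste difference at day 10 thus rests on 1 day 0 library per lane. It cannot tell lane from the spread between single day 0 libraries.

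The table identifies genes by number only. None of its 20659 identifiers matched the RefSeq gene table used here, so no gene could be given a name, a position or a sequence. By rule, 4 genes are printed by identifier. These are, for each direction, the called gene with the smallest adjusted p and the called gene with the highest mean level. The other called genes are described by counts and ranges.

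CPM below means counts scaled to a library of 1000000 assigned reads, after correction for composition. At day 10, 24 of the 9886 genes tested differed between gamergate and worker brains, which is 0.243% of them (edgeR quasi-likelihood test, Benjamini-Hochberg adjusted p below 0.05). Of these, 18 were higher in gamergates (0.182%) and 6 were lower (0.0607%). Most differences among the called genes were large. Of the 18 higher genes 17 differed by more than 2-fold and 7 by more than 4-fold, with a median log2 fold change of 1.66. All 6 lower genes differed by more than 2-fold and 3 by more than 4-fold, with a median log2 fold change of -1.91. The castes did not overlap in any library for 23 of the 24 genes, and this also held for 191 of all genes tested (1.93%). The genes were called on these same libraries, so the sizes and the lack of overlap only describe them. With a median SE of 0.28 for the log2 fold change over all genes, small differences could seldom be called.

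**Figure D1:**
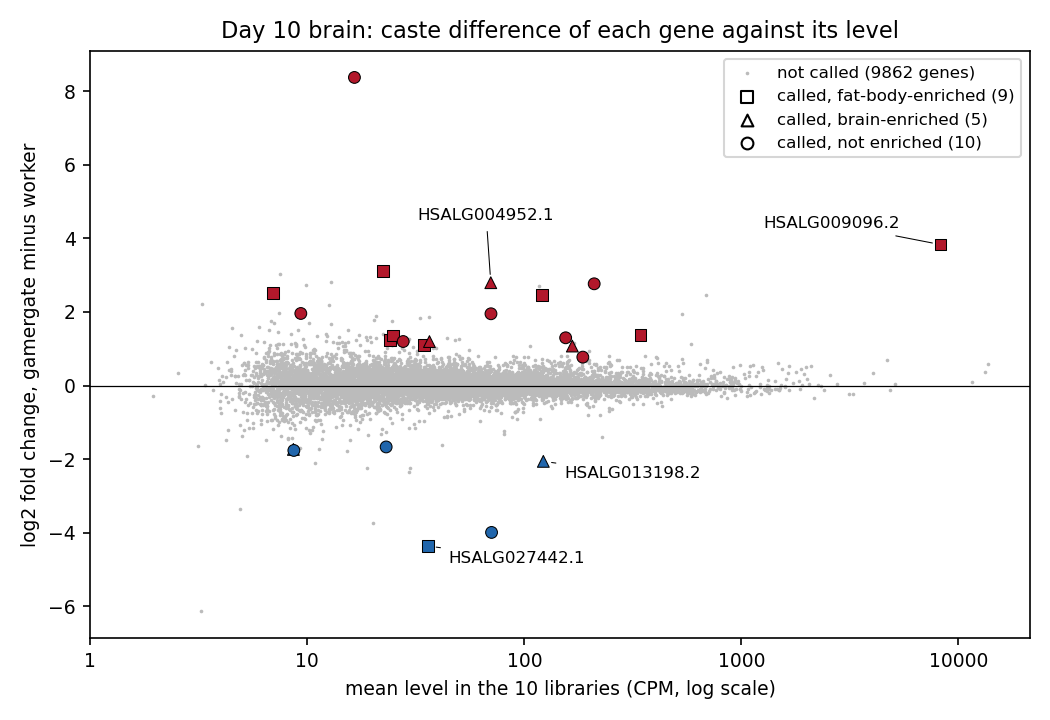
Log2 fold change between day 10 gamergate and worker brains (y axis) against the mean level in the 10 libraries (CPM, x axis, log scale), with 1 point per gene tested. The 18 higher genes are red and the 6 lower genes blue, with the shape giving the tissue in which a gene was enriched at day 0; the gene at the top right, HSALG009096.2, lies far to the right of the other called genes.

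The count of called genes depended on single libraries and on the design. It was 14 without gamergate 2, without gamergate 5 or without worker 1, it was 15 without gamergate 1, and it was 52 without the day 0 library numbered 5. With lane as a term, 12 genes were called and none of the 24 was among them.

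HSALG004952.1, a gene enriched in the brain at day 0, showed the difference with the smallest p. It stood at 101.5, 130.3, 99.6, 99.0 and 179.5 CPM in gamergates 1 to 5. In workers 1 to 5 it stood at 12.6, 15.97, 3.80, 43.8 and 14.5 CPM. Every gamergate lay above every worker, with worker 4 the nearest. The means were 122.0 ± 34.7 CPM and 18.1 ± 15.1 CPM (SD, n = 5), a log2 fold change of 2.79 (SE 0.31, 95% interval 2.15 to 3.44, edgeR adjusted p = 1.7e-05). The call held with each of the 25 brain libraries left out in turn. In the fit with a lane term the difference was 3.09 (SE 0.84) and the call ended.

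HSALG009096.2, enriched in the fat body at day 0, had the most reads of the called genes. In gamergates 1 to 5 it stood at 15633, 22065, 12416, 16318 and 11020 CPM. In workers 1 to 5 it stood at 930.3, 179.3, 532.7, 2979 and 840.6 CPM. The gamergates did not overlap the workers, and worker 4 lay far above the other workers. The log2 fold change was 3.83 (SE 0.69, 95% interval 2.41 to 5.25, edgeR adjusted p = 0.0074), and 4.64 without worker 4. The call ended without a filter on low counts and when all libraries of number 5 were dropped. In the fit with a lane term the difference was 0.23 (SE 1.27) and the call ended as well. That term rests on day 0 library 3 at 155.1 CPM and day 0 library 4 at 1874 CPM, 1 per lane. Day 0 brains spanned 155.1 to 4203 CPM, so that fit cannot tell lane from the spread at day 0.

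**Figure D2:**
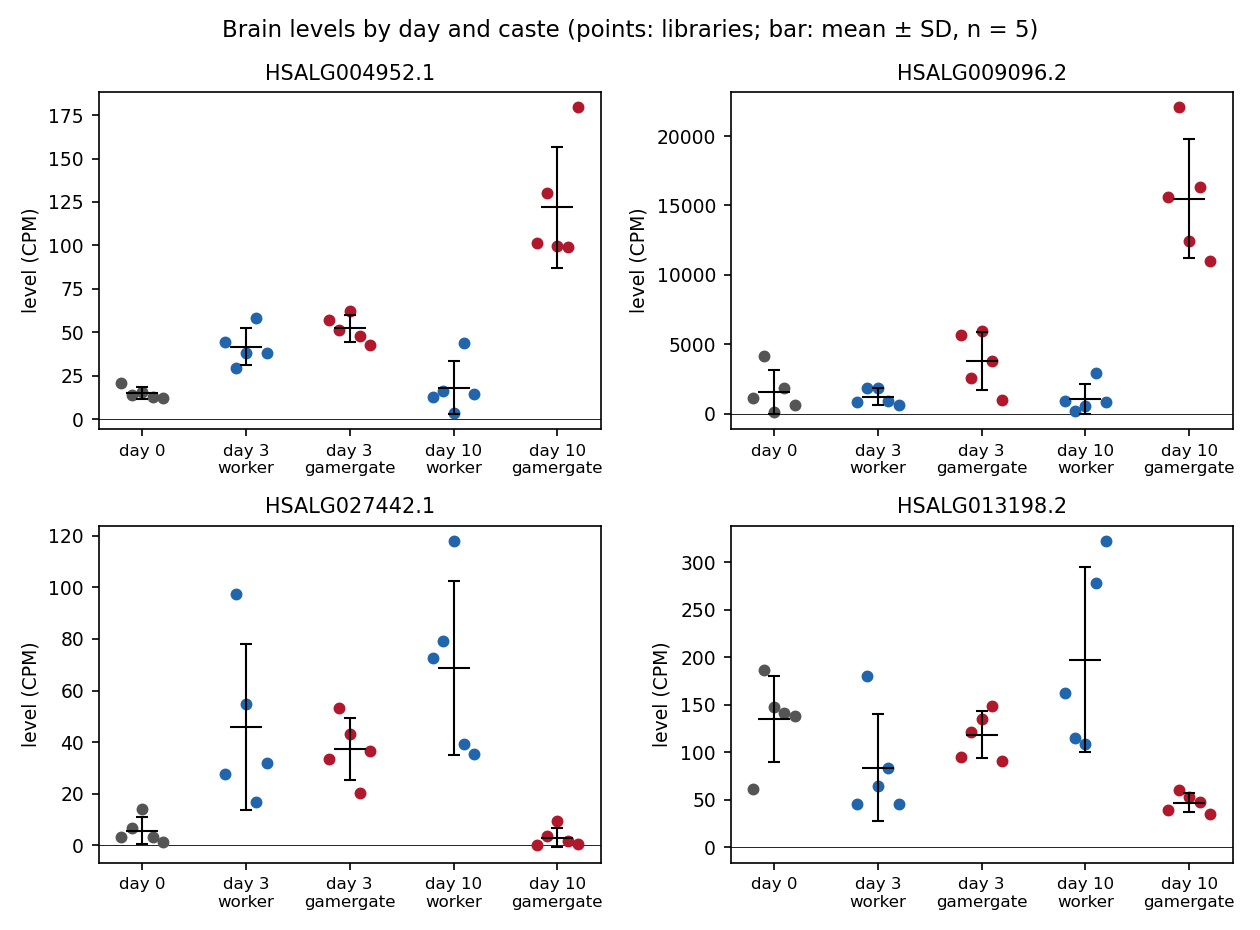
Level (CPM, y axis, linear) of the 4 genes given by identifier in all 25 brain libraries, by day and caste (x axis), with 1 point per library and bars for the mean ± SD (n = 5). HSALG004952.1 lay at 29.3 to 62.5 CPM in all day 3 libraries of both castes. At day 10 it lay at 99.0 CPM or more in gamergates and 43.8 CPM or less in workers. HSALG027442.1 was lower in day 10 gamergates, near its day 0 range, while its day 10 workers overlapped the day 3 range.

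The other 7 higher genes enriched in the fat body had log2 fold changes from 1.11 to 3.10. Their gamergate means reached up to 494.6 CPM and their worker means lay between 1.93 and 192.3 CPM. One of them stood at 358.6, 408.8, 338.6, 365.2 and 1002 CPM in gamergates 1 to 5 and at 156.0 to 229.1 CPM in workers. Library 5 thus set its gamergate mean, and the other 4 gamergates still lay above all workers. Over the 18 higher genes, library 5 held the highest gamergate value for 13.

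The other brain-enriched genes among the 18 numbered 2. Their log2 fold changes were 1.07 and 1.19, with gamergate means of 224.4 and 50.9 CPM and worker means of 108.5 and 22.2 CPM. The remaining 7 higher genes were enriched in no tissue and had log2 fold changes from 0.77 to 8.37. The value of 8.37 belongs to a gene with 128 reads over the gamergate libraries and 0 over the worker libraries, so the fitted value is no bound. It was at least 55.7-fold higher in gamergates when the worker group was set to 3 reads in all. Its gamergate libraries stood at 34.6, 56.3, 2.10, 68.1 and 3.79 CPM, so libraries 3 and 5 were far below the other 3. Another of these genes stood at 239.8, 221.3, 142.6, 151.7 and 1075 CPM in gamergates against 26.6 to 83.2 CPM in workers, again with library 5 far above the rest.

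HSALG027442.1 was the lower gene with the smallest p and was enriched in the fat body at day 0. It stood at 0, 3.75, 9.43, 1.55 and 0.63 CPM in gamergates 1 to 5. In workers 1 to 5 it stood at 72.5, 79.0, 118.0, 39.4 and 35.3 CPM. The gamergate brains were near 0 and none reached the lowest worker. The log2 fold change was -4.36 (SE 0.63, 95% interval -5.66 to -3.06, edgeR adjusted p = 0.0011), and -5.33 without gamergate 3. In the fit with a lane term the difference was -2.21 (SE 1.47) and the call ended. Day 0 libraries 3 and 4, on which that term rests, stood at 14.3 and 3.15 CPM.

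HSALG013198.2, the lower gene with the highest mean level in the 10 libraries, was enriched in the brain at day 0. It stood at 38.9, 60.0, 53.5, 48.0 and 35.4 CPM in gamergates 1 to 5. In workers 1 to 5 it stood at 162.7, 115.4, 108.4, 278.7 and 322.7 CPM. The gamergates lay close together and below all workers, and the workers spread over a wider range. The log2 fold change was -2.06 (SE 0.36, 95% interval -2.80 to -1.31, edgeR adjusted p = 0.00635). The call ended in the fit with a lane term, where the difference was -1.996 (SE 0.85). It also ended when all libraries of number 5 were dropped, where the difference was -1.66 (SE 0.46).

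The other 4 lower genes had log2 fold changes from -3.99 to -1.67, 1 of them enriched in the brain and 3 in no tissue. Their worker means were 13.2 to 134.2 CPM and their gamergate means 4.00 to 10.8 CPM. The gene at -3.99 was the 1 called gene whose castes overlapped, with gamergates at 1.55 to 17.7 CPM and workers at 6.33 to 309.3 CPM.

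**Figure D3:**
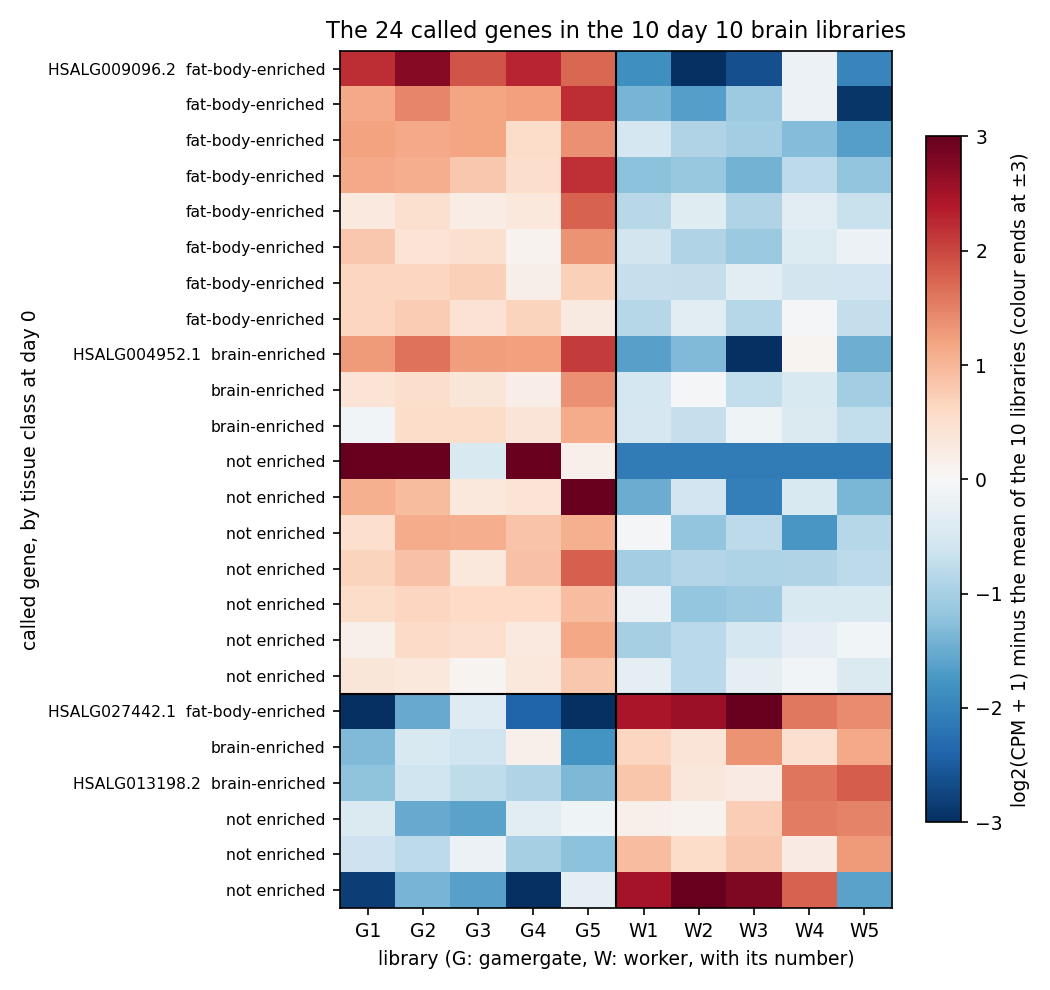
Each of the 24 called genes (rows, grouped by direction and by the tissue of enrichment at day 0) in the 10 day 10 brain libraries (columns), coloured by log2(CPM + 1) minus the gene's mean over the 10 libraries, with colours ending at ±3. Rows of the 18 higher genes are mostly red in gamergates and blue in workers, gamergate 5 holds the highest gamergate value for 13 of them, and the 6 lower genes show the reverse colours.

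By tissue class, 8 of the 246 fat-body-enriched genes tested were called higher (3.25%), as were 3 of 714 brain-enriched genes (0.42%) and 7 of 8882 genes enriched in no tissue (0.0788%). Called lower were 1 fat-body-enriched gene (0.407%), 2 brain-enriched genes (0.28%) and 3 of the genes enriched in no tissue (0.0338%). Of the 44 ovary-enriched genes tested, edgeR called 0, with 1 higher and 2 lower at an unadjusted p below 0.05, and DESeq2 also called 0. Without gamergate 5, the calls among the 24 were 5 fat-body-enriched, 1 brain-enriched and 3 other genes higher, and 1 of each class lower. In bulk tissue, a different number of cells of a type and a different amount of RNA per cell cannot be told apart.

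Most of the fat-body-enriched genes tested had a positive difference in the brain. Their median log2 fold change was 0.31, with 184 of 246 genes above 0 (74.8%), beside a median of 0.02 and 54.2% above 0 over all genes tested. Without gamergate 5 the median was 0.09 and 148 genes were above 0 (60.2%), beside a median of -0.01 and 48.3% over all genes. The list median was 0.05 (56.0% above 0) without all libraries of number 5, 0.12 (59.8%) in the fit with a lane term and 0.11 (62.2%) with limma-voom. Over all genes tested, 49.8%, 52.4% and 48.7% were above 0 in these settings. Brain-enriched genes stood at 60.4%, 48.7% and 60.8%, and at 66.6% without gamergate 5. Both of these lists thus lay mostly above 0 without gamergate 5, without all libraries of number 5 and with limma-voom. For the caste difference at day 3, 73.2% of the fat-body-enriched genes were above 0, with a median of 0.14. Brain-enriched genes stood at 66.8% and ovary-enriched genes at 63.6% there, beside 49.7% over all genes tested. At day 10 the fat-body-enriched list took 4.90%, 5.57%, 4.46%, 4.71% and 7.47% of the assigned reads in gamergates 1 to 5. In workers it took 2.83% to 3.61%. The means were 5.42% ± 1.21 and 3.18% ± 0.347 (SD, n = 5), with no overlap between castes. The two-sided exact permutation p was 0.00794, the smallest that 5 against 5 libraries allow, and 0.0635 after adjustment over the 8 measures compared per library, which misses 0.05.

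HSALG009096.2 alone made up 1.35 of the 2.24 percentage points by which this share differed, with 1.46% ± 0.381 in gamergate brains against 0.108% ± 0.107 in worker brains (SD, n = 5). Without it, a setting added after its values were seen, the list held 3.96% and 3.07% (exact permutation p = 0.0873). Without gamergate 5 as well, the list held 3.35% and 3.07% (exact permutation p = 0.167). Of the 373 genes in the list, 6 had no read in any gamergate brain and 5 had none in any worker brain. Nearly all thus had at least 1 read in each caste, while 246 passed the filter on low counts and were tested. The part of fat body tissue in the brain samples in these differences was not tested.

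The share of brain-enriched genes was 15.6% ± 2.90 for gamergates against 16.3% ± 0.899 for workers (SD, n = 5), with an exact permutation p of 0.849. Their median log2 fold change was -0.08 with 36.1% above 0, and without gamergate 5 it was 0.10 with 66.6% above 0, so the direction of this list turned with that library. Ovary-enriched genes took 0.130% in gamergates and 0.142% in workers (exact permutation p = 0.0238, adjusted 0.0952). Of the 165 ovary-enriched genes, 18 had no read in gamergate brains and 20 had none in worker brains. None of the 8 measures, which also included assigned reads and the share of reads outside genes, passed an adjusted p of 0.05.

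**Figure D4:**
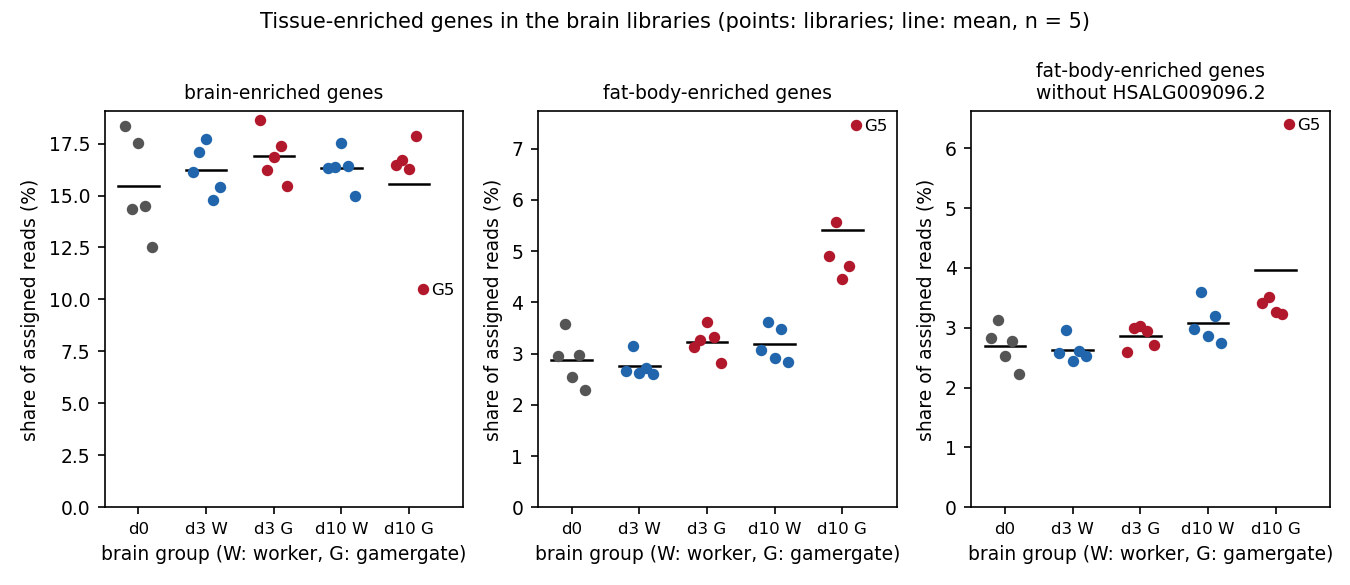
Share of assigned reads (%, y axis from 0) in brain-enriched genes, in fat-body-enriched genes, and in the latter without HSALG009096.2, for the 25 brain libraries by day and caste (x axis; d: day, W: worker, G: gamergate), with 1 point per library and a line for the mean (n = 5). The 5 day 10 gamergates lie above all workers in the middle panel (4.46% or more against 3.61% or less); without HSALG009096.2 the castes overlap, and gamergate 5 stands apart in all panels.

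The called genes were then placed against the day 0 brains, as a description, since these contrasts share libraries with the caste comparison. Of the 18 higher genes, 14 were called higher in day 10 gamergates than at day 0, a contrast in which 5.14% of all genes were called higher. In day 10 workers 2 of the 18 were called lower than at day 0 (9.8% of all genes were), and no gene was called in both castes. The day 0 mean lay between the caste means for 15 of the 18 and below both for 3. Of the 6 lower genes, 3 were called lower in gamergates than at day 0 (5.56% of all genes) and 3 others higher in workers (5.97%).

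The 4 genes given by identifier divided in the same way. HSALG004952.1 was higher in day 10 gamergates than at day 0 (log2 fold change 3.04, edgeR adjusted p = 2.74e-06), while in workers the value was 0.24 (95% interval -0.45 to 0.94). HSALG009096.2 was also higher in gamergates (log2 fold change 3.28, edgeR adjusted p = 0.0072), with -0.55 (-1.82 to 0.73) in workers. HSALG013198.2 was lower in gamergates (log2 fold change -1.52, edgeR adjusted p = 0.0123), with 0.54 (-0.14 to 1.23) in workers. HSALG027442.1 instead was higher in workers (log2 fold change 3.60, edgeR adjusted p = 0.0013), with -0.76 (-2.36 to 0.84) in gamergates. With lane as a term no gene of the 24 was called against day 0 in either caste. That fit sets the gamergates against day 0 library 4 alone and the workers against day 0 library 3 alone. With 1 day 0 library per contrast, the lack of calls cannot be read as an effect of lane.

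Day 3 brains gave the same measure in other libraries, which are in the same fit and share its filter and its estimate of the spread with the day 10 comparison. All day 3 libraries were on one flow cell and all day 10 libraries on another, so differences between these days and between flow cells cannot be told apart. At day 3 no gene was called between the castes by edgeR, DESeq2 or limma-voom, and 126 genes (1.27%) had an unadjusted edgeR p below 0.05. That share is below the 0.05 that such a threshold passes when nothing differs. The lack of calls thus does not show that the castes were alike at day 3. For the 18 genes called higher at day 10, the day 3 differences ran from -0.14 to 1.63 with a median of 0.33, with 16 above 0 and 6 at an unadjusted p below 0.05. The 6 lower genes had a median of 0.18, from -2.20 to 0.66, with 2 below 0. The median over all genes was -0.001.

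HSALG004952.1 stood at 42.7 to 62.5 CPM in day 3 gamergates and 29.3 to 58.1 CPM in day 3 workers, and at 12.1 to 21.0 CPM at day 0. All 10 day 3 libraries thus lay above all day 0 libraries, and the castes overlapped. By day 10 the castes lay on either side of the day 3 range, except for worker 4 at 43.8 CPM. The caste difference grew from 0.32 at day 3 to 2.79 at day 10, a change of 2.47 on the log2 scale (SE 0.42, edgeR adjusted p = 0.0315). This was the 1 gene of all tested whose caste difference changed between the days (0.0101%). The call ended in 14 of the 25 fits that left out 1 brain library.

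HSALG027442.1 stood at 1.42 to 14.3 CPM at day 0, at 20.2 to 53.1 CPM in day 3 gamergates and at 16.8 to 97.5 CPM in day 3 workers. Both castes at day 3 thus lay above all day 0 libraries, and at day 10 all 5 workers lay above the day 0 libraries while all 5 gamergates lay below every day 3 library. The change of the caste difference was -4.02 (SE 0.80, edgeR adjusted p = 0.0854), which missed the threshold. For HSALG013198.2 the change was -2.52 (SE 0.50, edgeR adjusted p = 0.0854), with day 3 gamergates at 91.5 to 148.5 CPM and workers at 45.4 to 180.4 CPM. HSALG009096.2 stood at 1006 to 5997 CPM in day 3 gamergates and 665.7 to 1887 CPM in day 3 workers, and its change was 2.21 (95% interval 0.39 to 4.02), which missed the threshold as well.

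Among the 18 higher genes, the day 3 gamergate mean was above the day 0 mean for 14 and the day 10 gamergate mean above the day 3 mean for 17. In workers these counts were 9 and 3. All 18 differences were larger at day 10 than at day 3 and all 6 lower genes were more negative, a direction that the choice of the genes at day 10 favours.

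**Figure D5:**
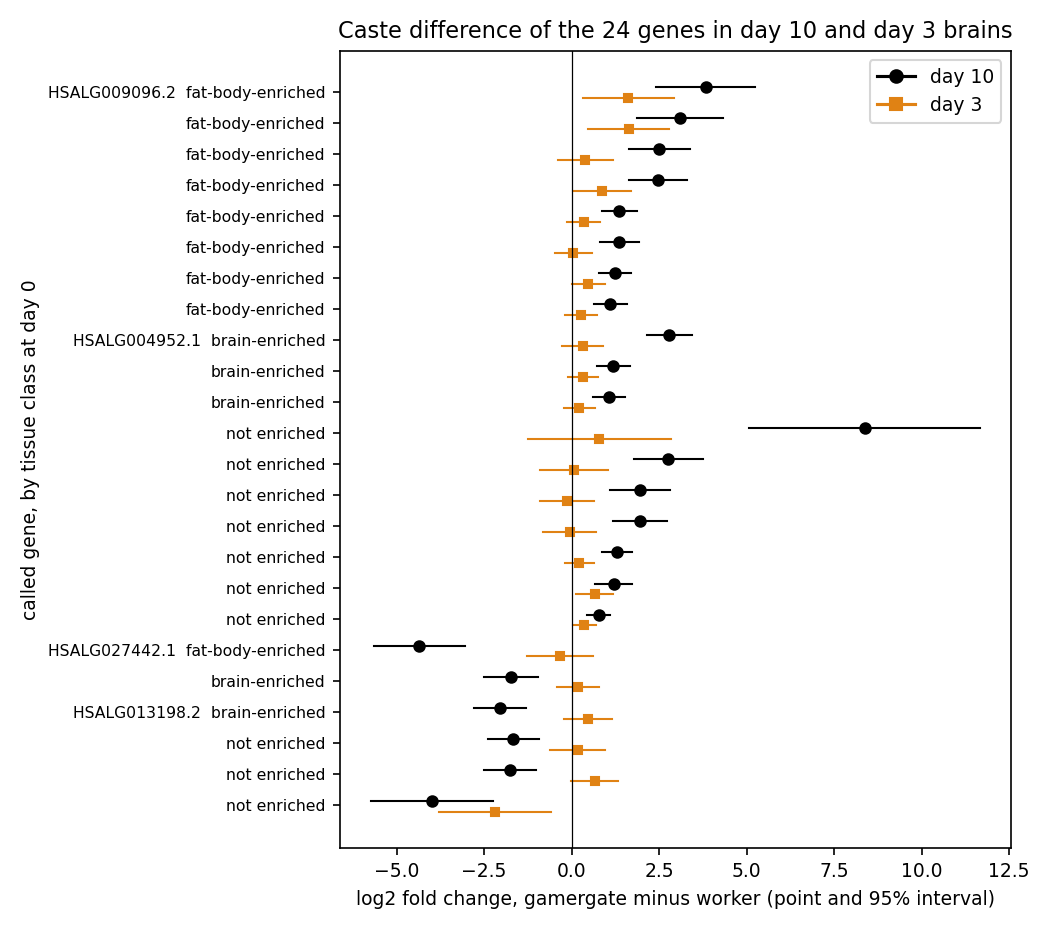
Log2 fold change between gamergate and worker brains (x axis, point and 95% interval) of the 24 genes called at day 10 (rows, by direction and tissue class), at day 10 (black circles) and at day 3 (orange squares). At day 3, 16 of the 18 higher genes lie above 0, and 4 of the 6 lower genes lie above 0 as well, opposite to day 10; the day 10 values chose the genes.

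The same genes were read in the fat body and ovary of day 10, in a fit of 30 libraries over 10439 genes. This fit estimates 1 spread for 3 tissues and called 5 of the 24 genes in the brain. Of the 18 higher genes, 7 were also called higher in gamergate fat body (38.9% of them and 2.12% of the 330 genes higher there, beside 3.16% of all genes) and none lower. In the ovary 5 were called lower in gamergates and 1 higher (beside 16.3% and 14.5% of all genes). Of the 6 lower genes, 2 were called lower in fat body (3.65% of all genes) and 4 lower in ovary. Libraries of 1 number in different tissues may come from 1 ant, which the labels do not state.

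The test of the difference itself between tissues compares signed values. It found 1 of the 18 with a more positive caste difference in brain than in fat body (0.556% of all genes) and 8 with a more positive one in brain than in ovary (6.43% of all genes). For 7 of these 8 the ovary value was below 0, and for 4 it was of larger size than the brain value. Of the lower genes, 1 was more negative in brain than in ovary (5.33% of all genes) and none more negative in brain than in fat body (0.469% of all genes). Of these 9 genes that differed between brain and ovary, 8 were called in each of the 30 fits that left out 1 library, and HSALG009096.2 in 16 of them. The gene that differed from both tissues was enriched in none, with log2 fold changes of 1.27 in brain, -0.30 in fat body and -0.80 in ovary. In the brain it stood at 203.1 to 264.1 CPM in gamergates and 61.2 to 121.1 CPM in workers, with no overlap. Its difference between brain and ovary was 2.07 on the log2 scale (edgeR adjusted p = 0.000125). That between brain and fat body was 1.57 (edgeR adjusted p = 0.0246). The latter call was lost without the fat body libraries of gamergate 3, 4 or 5 or of worker 2.

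Levels across tissues are given as plain CPM, that is, scaled to the assigned reads of each library alone. HSALG009096.2 stood at 434206 to 445390 in the fat bodies of gamergates 1 to 4 and at 98539 in that of gamergate 5. In worker fat bodies it stood at 2902 to 12385 in libraries 1 to 3 and at 146624 and 114574 in libraries 4 and 5. In the worker brains, library 4 was the highest at 2908, while library 5 stood at 879.9, below library 1 at 924.7. Its caste difference was 3.38 in fat body (edgeR adjusted p = 0.0211) and 0.14 in ovary (95% interval -1.58 to 1.85). The brain difference exceeded the ovary difference by 3.70 (SE 1.23, edgeR adjusted p = 0.0467) and the fat body difference by 0.45 (95% interval -1.97 to 2.88). The call of the former ended in 14 of the 30 fits without 1 library, with values from 3.14 to 4.56, and without a filter on low counts. In the fit of all 30 libraries its brain difference alone had an edgeR adjusted p of 0.179.

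HSALG027442.1 was lower in gamergates in all 3 tissues. In fat body it stood at 16.6 to 29.9 plain CPM in gamergates and 92.4 to 180.0 in workers (log2 fold change -1.86, edgeR adjusted p = 0.00138). In ovary it stood at 5.39 to 10.6 and 38.2 to 117.5 (log2 fold change -3.26, SE 0.42). The castes overlapped in none of the tissues. The brain difference was 2.53 more negative than that in fat body on the log2 scale (-2.53, edgeR adjusted p = 0.051), which missed the threshold.

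HSALG004952.1 and HSALG013198.2, both brain-enriched, had few reads elsewhere. HSALG004952.1 had 0 reads in gamergate fat bodies, 0 to 6.21 plain CPM in worker fat bodies, and 0 to 11.97 in ovaries. HSALG013198.2 stood at 0 to 2.08 in fat bodies and 0 to 8.23 in ovaries. In the brain the same genes reached 172.8 and 337.8 plain CPM.

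The median SE of a log2 fold change was 0.28, and the biological coefficient of variation was 0.272. For 7391 genes (74.8%) the 95% interval of the caste difference lay within 2-fold in either direction, and for 2651 (26.8%) within 1.5-fold. With lane as a term, the first count was 899. This depended on level, with 20% of 940 genes below 10 CPM within 2-fold, 75.5% of 6445 genes between 10 and 100 CPM, and 93.4% of 2501 genes at 100 CPM or more. For 2471 genes that were not called, the interval reached beyond 2-fold, so these libraries leave a difference of that size possible. At an unadjusted p below 0.05 there were 511 genes (5.17%), 352 higher and 159 lower. Another 15 genes had an adjusted p between 0.05 and 0.10, the smallest at 0.0642 by edgeR.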

How the data were processed

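Polyadenylated RNA of 75 libraries was sequenced on an Illumina HiSeq after NEBNext Ultra II library preparation, per the labels' protocols. The authors deposited raw read counts per gene, not normalized. The submitters' processing notes name Trimmomatic, STAR 2.5.3a and HTSeq. For build, annotation and use of strand nothing is given in the sources used here, so genes that overlap or share reads with copies could not be recognised. The 5 HTSeq rows that name no gene stayed out. In the 10 libraries, 50.6% to 55.8% of reads lay outside genes and 4.62% to 8.99% aligned to several places.

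All 25 brain libraries were fitted together in edgeR 4.0.16 (R 4.3.3), with 1 coefficient per group, TMM scaling, filterByExpr (minimum count 10, minimum total 15) and the robust quasi-likelihood test, after tests on simulated data. CPM uses TMM-scaled library sizes. SE is the absolute log2 fold change over the root of F and restates the test. Genes enriched in 1 tissue came from the 15 day 0 libraries (log2 fold above 3 against both others, adjusted p below 0.05, at least 10 CPM). They numbered 715 for brain, 373 for fat body and 165 for ovary. The test for per-library measures was an exact permutation test, two-sided. Alternatives used DESeq2 1.42.0 and limma 3.58.1, and others are given in the closing section. Intervals and floors cover no error beyond the model or the counting. The genes given by identifier were, per direction, the called gene with the smallest adjusted p (mean of 10 CPM or more in the higher caste) and that with the highest mean CPM. The comparison, the lists and the tests were chosen with earlier results of these data known.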

Additional observations from a re-analysis of the deposited data

Results flagged for a closer look

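A library far from the rest was looked for in 36 combinations of a measure or gene with a group of 5 libraries, and 5 had one. Chance flags about 1 in 20 groups, but these combinations share libraries and are not independent, so the 2 rates cannot be compared. Among day 10 gamergate brains, 3 of these were library 5, with 8.99% of reads aligned to several places, 0.714% of ambiguous reads, and 10.5% of assigned reads in brain-enriched genes. HSALG009096.2 stood at 2979 CPM in day 10 worker 4, far above the other workers. HSALG013198.2 stood at 180.4 CPM in day 3 worker 2, far above the other day 3 workers.

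A difference between groups was found for 2 of the genes given by identifier. The caste difference of HSALG004952.1 in the brain was larger at day 10 than at day 3 by 2.47 on the log2 scale (edgeR adjusted p = 0.0315). That of HSALG009096.2 at day 10 was more positive in brain than in ovary by 3.70 (edgeR adjusted p = 0.0467).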

How the results depend on the processing

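The 24 calls stayed at 24 with RLE size factors or with scaling that left out fat-body-enriched genes, 23 without a filter (16 of the 24 kept), 46 with DESeq2 (24 kept), 151 with limma-voom and quality weights (21 kept), 10 in a fit of the 10 libraries alone (9 kept), 12 with lane as a term (0 kept), 27 without every library numbered 5 (11 kept), and 14 to 52 with 1 library left out. In all 25 such fits 9 of the 24 were called, 7 higher and 2 lower, and the 23 genes tested in every fit had the same direction throughout. The other gene was called in the 23 fits that tested it and was filtered out of 2. For the day 10 caste difference the lane term rests on day 0 libraries 3 and 4 alone, 1 per lane. The cause of these changes was not tested. Same-numbered gamergates and workers deviated together with r from -0.035 to 0.469, over 0.1 in 3 of 5 pairs, and 4 of 10 libraries correlated best with their own number, so the numbers were not taken as pairs. With the replicate block 26 genes were called (20 kept).

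Of the 24 genes, 17 were called in gamergates against day 0, which became 11 without a filter and 0 with lane as a term. In workers 5 were called, which became 8 with limma-voom, 0 with lane as a term and 3 to 7 with 1 library left out. At day 3 the lane term gave 1 call. The 1 call for the change between days became 3 with DESeq2, 6 with limma-voom, 3 with the replicate block, 5 without every library numbered 5, and 0 to 3 with 1 library left out. The 7391 genes within 2-fold became 899 with lane as a term and 6623 to 7970 with 1 library left out. The 107 genes whose caste difference differed between brain and fat body became 186 with DESeq2, 262 with limma-voom, 69 without a filter and 79 to 186 with 1 library left out. The 1227 that differed between brain and ovary became 4782 with limma-voom and 812 to 2243 with 1 library left out.

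With 1 library left out, gamergate minus worker ranged from -0.045 to 0.080 percentage points for ambiguous reads, from -0.50 to 0.59 for reads aligned to several places, from -1.33 to 0.52 for brain-enriched genes, and from -425972 to 17156 for assigned reads.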
